A study of Sus scrofa with 6 samples.

Results

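The genes described here are 10 genes of the Hippo pathway in pig cells: the coactivators YAP1 and WWTR1 (which encodes TAZ), their DNA-binding partners TEAD1, TEAD2, TEAD3 and TEAD4, the kinases LATS1 and LATS2, and the target genes CCN1 and CCN2. They were taken by symbol from a table of 20131 genes, and all 10 were found. The levels are TPM, transcripts per 1000000, a measure of RNA abundance corrected for transcript length. pgEpiSC are pig pre-gastrulation epiblast stem cells, cultured pluripotent cells whose source tissue is given as the epiblast of embryos at embryonic day 10, and 4 libraries of them were analysed. pEF are porcine embryonic fibroblasts from fetuses at embryonic day 30, with 2 libraries. No treatment, genotype, sex or culture medium is given for either group. The replicates are described as biological, without saying whether each came from its own line or animal, so the p-values cover the spread between these libraries only.

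In the Hippo pathway a kinase cascade ends at LATS1 and LATS2, which phosphorylate YAP and TAZ and thereby keep them in the cytoplasm or mark them for degradation. When the kinases are inactive, YAP and TAZ enter the nucleus and bind TEAD proteins, which bring them to DNA, since neither coactivator binds DNA itself. The pathway is known for its response to cell density, cell shape and matrix stiffness, and in the mouse blastocyst it separates trophectoderm from the inner cell mass through TEAD4. These are steps of protein activity and location, which RNA levels do not measure.

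Summed over genes, the deposited values give 157288 to 320206 TPM per pgEpiSC library and 93556 and 145611 TPM for pEF, so the libraries are on unequal scales. Read depth per library is not known from TPM. Over all 10424 genes tested, the median log2 fold as deposited was 0.48, and it was 0.02 once values were scaled by median ratio, a division of each library by its median ratio to the geometric mean of all libraries. Each fold of the 10 genes is therefore given for the values as deposited and after scaling. Folds of other genes are as deposited unless scaling is named, and scaling can change them too. Pairwise correlations of log2(TPM + 1) were 0.935 to 0.990 within pgEpiSC, 0.956 between the pEF libraries and 0.608 to 0.660 between groups. All 6 epiblast markers found by symbol of a list of 9 were at 1 TPM or more in every pgEpiSC library. Their sum ran from 400.5 to 1709 TPM there and from 0.0993 to 0.613 TPM in pEF. POU5F1, SOX2 and SALL4 of that list were not found by symbol, so their levels were not examined. All 8 fibroblast markers found of 9 reached 1 TPM in both pEF libraries, with sums of 2.64 to 9.96 TPM in pgEpiSC against 625 to 1397 TPM in pEF. Of the trophectoderm list, summed levels were 2.04 to 14.3 TPM in pgEpiSC and 4.46 to 10.8 TPM in pEF, CDX2 did not exceed 0.0331 TPM in any pgEpiSC library, and KRT7 alone of its 8 genes was at 1 TPM or more in all of them. KRT7 was called higher (1.58, limma adjusted p = 0.0350). DAB2, at 3.26 and 9.64 TPM in pEF, was called lower (-2.58, adjusted p = 1.41e-05). KRT7 reached 1 TPM in no pEF library and DAB2 in no pgEpiSC library. The hypoblast and endoderm list, of which 7 of 8 genes were found, summed to 6.20 to 13.0 TPM in pgEpiSC and 0.615 to 1.30 TPM in pEF. FOXA2 and APOA1 of that list were at 1 TPM or more in all 4 pgEpiSC libraries. Both were called higher (1.84 and 2.22, limma adjusted p = 0.00286 and 0.00251). Neither reached 1 TPM in a pEF library, so both passed the filter through pgEpiSC alone, which fixed their direction. The other genes found stayed low in pgEpiSC: GATA4 did not exceed 0.0768 TPM, GATA6 0.176, HNF4A 0.0633, TTR 0.312 and AFP 0.0106 TPM. GATA6 was at 0.148 and 0.392 TPM in pEF. The part of such cells in the results was not tested. The endothelial and the blood and immune lists stayed under 1.84 TPM in sum in every library.

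The main contrast lay in the target genes and in the choice of TEAD gene. CCN1 and CCN2 were the most lowered members in pgEpiSC, while YAP1 was abundant in both cell types. TEAD2 was higher in pgEpiSC and TEAD1, LATS2, CCN1 and CCN2 were lower, in limma on log2(TPM + 1) with Benjamini-Hochberg adjustment over all genes tested at 0.05. Of the 10 members, 1 was thus called higher and 4 lower, where 18.0% of all tested genes were called higher, 9.43% lower and 27.4% in either direction. All 10 members passed the filter of 1 TPM in at least 2 libraries, and 8 of them would have passed it in each group on its own; WWTR1 in pgEpiSC and TEAD4 in pEF would not. The median log2 fold of the members was -0.88, against 0.48 for all genes. After scaling 2 members were called higher and 8 lower, beside 57.9% of all genes called in either direction, 27.0% higher and 30.9% lower. As deposited the groups did not overlap for 6 of 10 members, TEAD2 higher and 5 genes lower, where 49.5% of all tested genes did not (36.6% higher, 12.9% lower). After scaling none of the 10 overlapped, with 2 higher and 8 lower, where 70.5% of all tested genes did not overlap (34.5% higher, 35.9% lower).

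**Figure D1:**
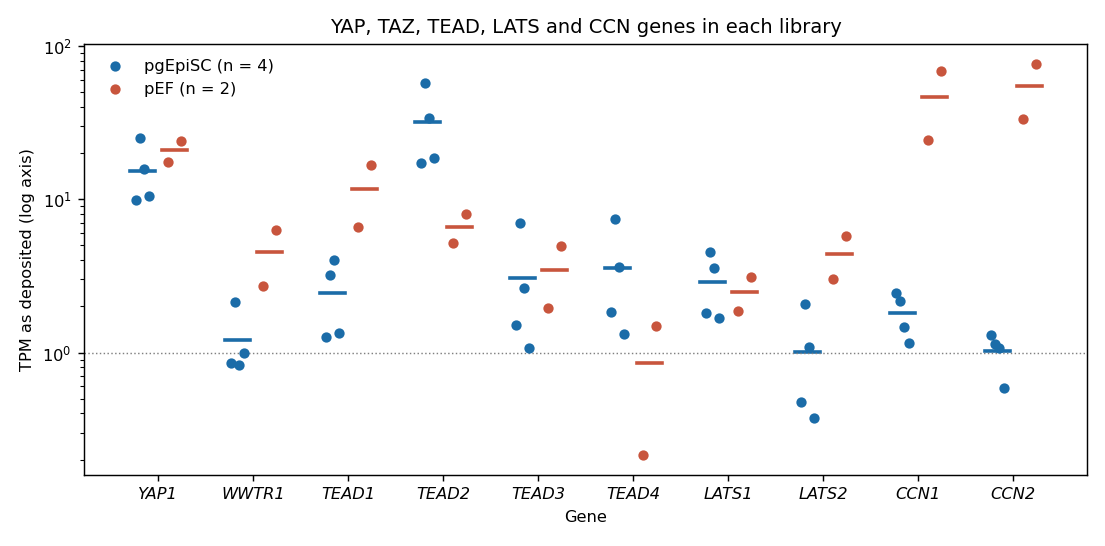
TPM as deposited (log axis) of the 10 genes in each library, with 4 pgEpiSC libraries (blue, left of each pair) and 2 pEF libraries (red, right); points are libraries, bars are group means and the dotted line marks 1 TPM. CCN1 and CCN2 stay under 2.46 TPM in every pgEpiSC library and are at 24.5 TPM or more in both pEF libraries, and TEAD2 is the only gene of the set that lies wholly above pEF.

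YAP1, the founding coactivator of the pathway, was at 9.91, 25.1, 15.9 and 10.6 TPM in pgEpiSC libraries 1 to 4, against 17.6 and 24.2 TPM in pEF libraries 1 and 2. The groups overlapped, because pgEpiSC library 2 stood above both pEF libraries. Ranked among all genes of its library, YAP1 stood at percentiles 91.6 to 92.4 in pgEpiSC and at 95.9 and 96.3 in pEF. As deposited it was not called (log2 fold -0.49 ± 0.52, SE; limma adjusted p = 0.50). After scaling it was lower in every pgEpiSC library, at 9.75 to 14.5 against 25.3 and 30.5 scaled TPM, and was called (-1.11 ± 0.24, adjusted p = 0.00478).

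WWTR1, which encodes the YAP paralog TAZ, was low beside YAP1 in every library. It was at 0.860, 2.14, 0.834 and 0.989 TPM in pgEpiSC, against 2.72 and 6.28 TPM in pEF. The groups did not overlap, and 3 of the 4 pgEpiSC libraries were under 1 TPM. The fold of -1.28 ± 0.53 was not called as deposited (limma adjusted p = 0.0644), and was called after scaling (-1.73 ± 0.21, adjusted p = 0.000256) and as deposited without pgEpiSC replicate 2 (-1.46, adjusted p = 0.0106). Within a library, where scale plays no part, WWTR1 made up 7.99, 7.86, 4.99 and 8.57% of the summed YAP1 and WWTR1 level in pgEpiSC and 13.4 and 20.6% in pEF. TAZ thus took a smaller share of the coactivator RNA in each pgEpiSC library than in either pEF library, with means of 7.35 ± 1.60% (SD, n = 4) and 17.0 ± 5.11% (SD, n = 2), given as a description without a test.

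The TEAD genes encode transcription factors that share a TEA DNA-binding domain and a YAP-binding domain. TEAD2, the member known in the mouse for early embryonic and neural expression, was at 17.2, 57.7, 33.8 and 18.6 TPM in pgEpiSC, against 5.22 and 8.03 TPM in pEF. It was the most abundant of the 10 genes in every pgEpiSC library, with the lowest pgEpiSC library above the highest pEF library. It was called higher as deposited (1.96 ± 0.53, limma adjusted p = 0.00471) and after scaling (1.37 ± 0.21, adjusted p = 0.000926). TEAD1, the broadly expressed member known for muscle and heart genes, ran the other way, at 1.26, 3.22, 4.03 and 1.34 TPM in pgEpiSC and 6.56 and 16.7 TPM in pEF. No pgEpiSC library reached the lower pEF library. It was called lower as deposited (-1.83 ± 0.58, adjusted p = 0.0152) and after scaling (-2.40 ± 0.22, adjusted p = 5.13e-05). Both calls were lost with 1 pEF library left out. Without pEF replicate 1 the folds were 1.69 for TEAD2 and -2.44 for TEAD1 (limma adjusted p = 0.184 and 0.0929), and without pEF replicate 2 they were 2.23 and -1.22 (0.0613 and 0.361). The lone library left is then assumed to vary like the pgEpiSC group. With scaling, both calls held in each of the 6 fits that left out 1 library, at folds of 1.32 to 1.44 for TEAD2 and of -2.69 to -2.11 for TEAD1. With no filter on low values, 18957 genes entered the adjustment and both calls, like that of LATS2, were lost (limma adjusted p = 0.0743 for TEAD2, 0.0919 for TEAD1 and 0.138 for LATS2).

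TEAD4, known as the trophectoderm factor of the mouse embryo, was at 1.83, 7.49, 3.60 and 1.32 TPM in pgEpiSC, against 0.214 and 1.48 TPM in pEF. The groups overlapped by pgEpiSC library 4 alone, which lay under pEF library 2. TEAD4 was not called as deposited (1.21 ± 0.56, limma adjusted p = 0.104) and was called higher after scaling (0.89 ± 0.27, adjusted p = 0.0222), a call lost there without pEF replicate 1 (0.44, adjusted p = 0.226). TEAD3, which is known for expression in the placenta, was at 1.52, 6.97, 2.65 and 1.07 TPM in pgEpiSC and 1.95 and 4.95 TPM in pEF. Its groups overlapped in both directions, and the fold of -0.25 ± 0.59 was not called (adjusted p = 0.776). After scaling TEAD3 was called lower (-0.77 ± 0.25, adjusted p = 0.0269), a call lost without pgEpiSC replicate 3 or 4 or pEF replicate 2 (-0.70, -0.67 and -0.53).

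The make-up of the TEAD family differed between the cell types, while its total overlapped. Summed over TEAD1 to TEAD4, the level was 21.8, 75.3, 44.0 and 22.3 TPM in pgEpiSC and 13.9 and 31.2 TPM in pEF. TEAD2 held 78.8, 76.5, 76.6 and 83.3% of that sum in pgEpiSC libraries 1 to 4, against 37.5 and 25.8% in pEF. TEAD1 held 5.80, 4.27, 9.14 and 6.0% in pgEpiSC and 47.0 and 53.6% in pEF. TEAD1 was the largest share in both pEF libraries, and TEAD2 in all 4 pgEpiSC libraries. TEAD2 exceeded TEAD1 8.38- to 17.9-fold in pgEpiSC, and was 0.796 and 0.481 of TEAD1 in pEF. TEAD3 held 4.80 to 9.25% in pgEpiSC and 14.0 and 15.9% in pEF, and TEAD4 held 5.93 to 9.94% and 1.53 and 4.76%. No share of a TEAD gene overlapped between the groups. These shares do not depend on how libraries are scaled to each other, and they are descriptions without a test. For each unit of summed YAP1 and WWTR1, the TEAD sum was 1.93 to 2.76 in pgEpiSC and 0.687 and 1.02 in pEF.

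**Figure D2:**
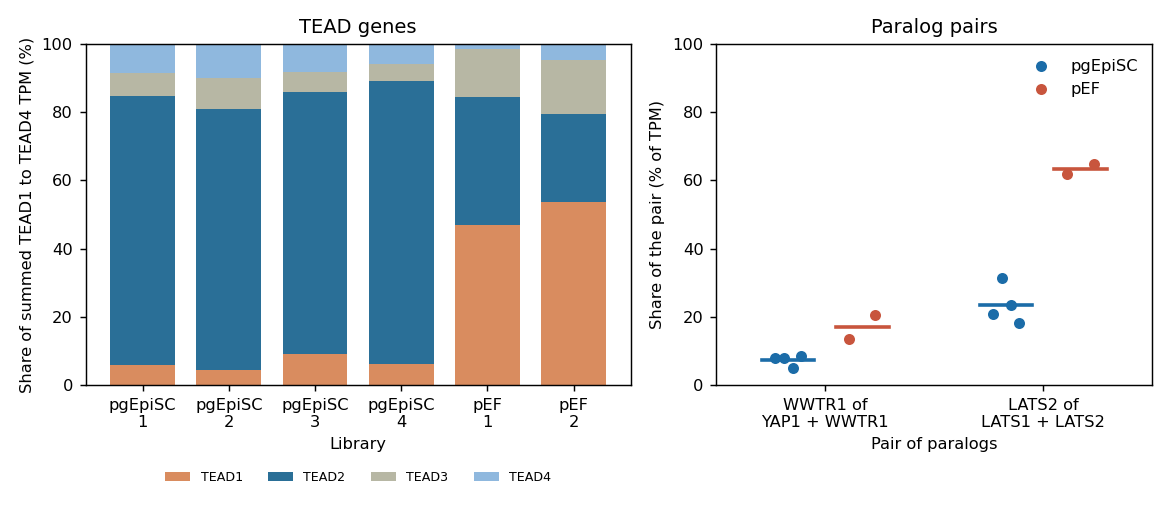
Left, share of each TEAD gene in the summed TEAD1 to TEAD4 TPM (%) of each library, pgEpiSC libraries first; right, share of WWTR1 in YAP1 plus WWTR1 and of LATS2 in LATS1 plus LATS2 (% of TPM), with points for libraries and bars for means. TEAD2 fills 76.5 to 83.3% of the pgEpiSC bars, TEAD1 is the largest part of both pEF bars, and neither paralog share overlaps between groups.

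The kinases LATS1 and LATS2, which phosphorylate YAP and TAZ, also differed in their balance. LATS1 was at 1.80, 4.51, 3.57 and 1.68 TPM in pgEpiSC, against 1.86 and 3.13 TPM in pEF. The pEF libraries lay inside the pgEpiSC range. It was not called as deposited (0.11 ± 0.56, limma adjusted p = 0.899), and its direction turned after scaling (-0.37 ± 0.14, adjusted p = 0.0442). That scaled call was lost in 5 of the 6 scaled fits that left out 1 library, all but the fit without pgEpiSC replicate 2 (-0.41 to -0.36, limma adjusted p = 0.0694 to 0.146). LATS2, which is also a target gene of YAP and TAZ and so part of a feedback loop, was at 0.475, 2.07, 1.09 and 0.376 TPM in pgEpiSC, against 3.0 and 5.75 TPM in pEF. All 4 pgEpiSC libraries were below both pEF libraries, and it was called lower (-1.45 ± 0.51, adjusted p = 0.0306). That call was lost without pgEpiSC replicate 1, 3 or 4 or with either pEF library left out (folds of -1.83 to -1.07, limma adjusted p = 0.0669 to 0.269). After scaling the fold was -1.96 ± 0.15 (adjusted p = 2.02e-05), and the call held in all 6 scaled fits without 1 library. LATS2 was 20.9, 31.5, 23.4 and 18.2% of the summed LATS1 and LATS2 level in pgEpiSC, and 61.7 and 64.8% in pEF. LATS1 was thus the more abundant kinase RNA in every pgEpiSC library and LATS2 in both pEF libraries. Summed LATS1 and LATS2 per unit of summed YAP1 and WWTR1 was 0.178 to 0.279 in pgEpiSC and 0.240 and 0.291 in pEF, which overlapped.

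CCN1 and CCN2 encode secreted matricellular proteins (formerly CYR61 and CTGF) and are the targets of YAP and TAZ most often used as a readout; both also respond to TGF-beta and serum. CCN1 was at 2.45, 2.16, 1.46 and 1.16 TPM in pgEpiSC, against 24.5 and 68.5 TPM in pEF. CCN2 was at 1.29, 1.14, 1.07 and 0.584 TPM in pgEpiSC, against 33.7 and 77.1 TPM in pEF. Neither gene overlapped between the groups, and pgEpiSC library 2, the highest for most other members, was not the highest for either. The log2 folds were -3.93 ± 0.56 for CCN1 (limma adjusted p = 6.18e-07) and -4.70 ± 0.56 for CCN2 (adjusted p = 1.11e-08). After scaling they were -4.45 ± 0.37 for CCN1 and -5.20 ± 0.28 for CCN2. On the log2(TPM + 1) scale such folds understate the change of a gene near 1 TPM. Both calls held in all 24 alternative fits, with folds from -5.21 to -2.78 for CCN1 and from -6.23 to -3.23 for CCN2. Among all genes of a library, the pair ranked at percentiles 50.4 to 77.4 in pgEpiSC and at 97.4 to 98.7 in pEF. The CCN1 to CCN2 ratio was 1.89, 1.90, 1.36 and 1.99 in pgEpiSC and 0.725 and 0.889 in pEF, so CCN1 was the higher of the pair in each pgEpiSC library and CCN2 in each pEF library.

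Set against YAP1 in the same library, summed CCN1 and CCN2 were 0.378, 0.131, 0.160 and 0.165 of the YAP1 level in pgEpiSC. In pEF they were 3.31 and 6.02 times the YAP1 level. A bulk measurement cannot tell fewer cells with a transcript from less of it per cell. The pEF libraries also differed in muscle markers: the summed level of the 7 skeletal and cardiac muscle markers was 2.15 to 4.27 TPM in pgEpiSC, against 25.3 TPM in pEF library 1 and 229 TPM in pEF library 2. Of that sum DES, a muscle intermediate filament gene, made up 24.5 and 204 TPM, and the myogenic factor MYOD1 was listed at 0 in pEF library 1 and at 0.437 TPM in library 2. All 10 members were higher in pEF library 2 than in library 1 as deposited, and library 2 also has the larger TPM sum; after scaling 8 of them were, all but YAP1 and TEAD2. The part of muscle-type cells in these levels was not tested.

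**Figure D3:**
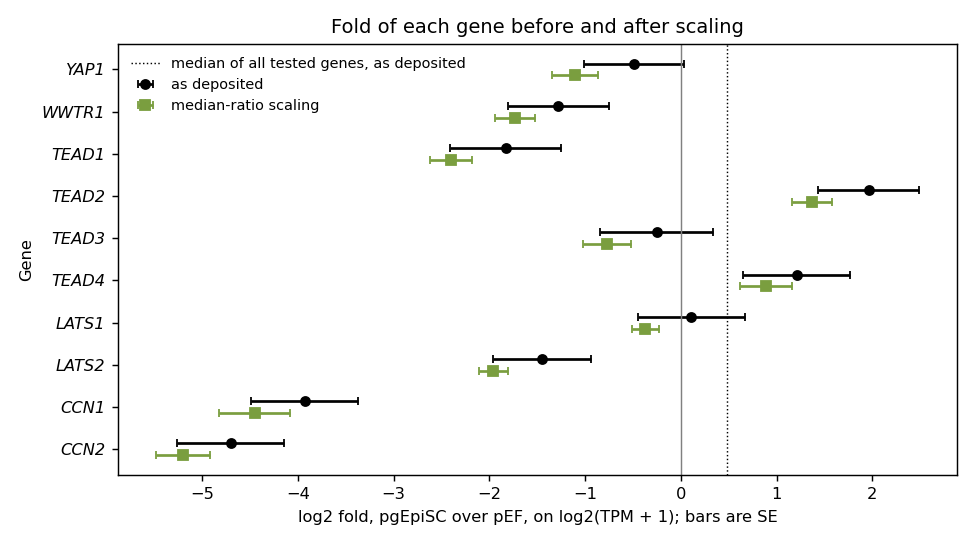
Log2 fold of each gene, pgEpiSC over pEF, on the log2(TPM + 1) scale with SE bars, as deposited (black circles) and after median-ratio scaling (green squares); the dotted line is the median of all tested genes as deposited, 0.48. Scaling moves each gene to the left; LATS1 has 0.11 as deposited and -0.37 after scaling, and TEAD2 and TEAD4 are above 0 in both.

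The other genes of the pathway were grouped into 7 lists, with 93 genes in all, of which 83 were found by symbol and 74 tested. As deposited 3 were called higher and 18 lower, and 53 were not called; after scaling 6 were higher, 36 lower and 32 not called. Of all tested genes, 18.0% were higher and 9.43% lower as deposited, and 27.0% and 30.9% after scaling. Their median log2 fold was 0.00 as deposited, against 0.48 for all tested genes. Of the 18 lowered genes, 11 were in the target list, as the plot of the pathway lists shows. At an unadjusted limma p under 0.05, the counts of 0 given for single lists stay at 0 except for retention and turnover, where 1 gene is higher. FAT4, SIAH2, VGLL3, CCN3 and CCN4, described for their lists, reached 1 TPM in no pgEpiSC library and so passed the filter through pEF alone. So did 7 genes of the target list, all of them called lower. For all these genes the filter fixed the direction, so the count of 18 lowered genes is a description.

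Of 15 upstream kinases and adaptors, 14 were tested, 1 was called higher, 0 lower and 13 were not called (median fold 0.02, as deposited). Of all tested genes, 18.0% were higher and 9.43% lower as deposited. STK3 and STK4, the MST kinases that activate LATS, had folds of -0.68 ± 0.55 and 0.96 ± 0.55, and the adaptors SAV1 and MOB1A had -0.10 ± 0.55 and 0.40 ± 0.49, none of them called. The 1 gene called was MAP4K1, a kinase best known from blood cells, at 0.621 to 3.48 TPM in pgEpiSC, against 0 and 0.0221 TPM in pEF (1.33 ± 0.42, limma adjusted p = 0.0156). It passed the filter through pgEpiSC alone, and its call was lost with either pEF library left out (1.32 and 1.35). After scaling 2 genes of the list were higher and 7 lower, where 27.0% of all tested genes were higher and 30.9% lower. STK4 (0.54) and MAP4K1 were then higher, and STK3 (-1.25) and SAV1 (-0.59) were among the lower. MOB1A turned to -0.22 and was not called.

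Of 24 junction, polarity and cadherin inputs to the pathway, 21 were found and 18 tested, with 2 called higher, 3 lower and 13 not called (median 0.29). Those 5 of 18 are near the share of all tested genes, 27.4%. PATJ, of the Crumbs polarity complex of epithelial cells, was at 2.63 to 10.1 TPM in pgEpiSC against 0.392 and 0.600 TPM in pEF, with every pgEpiSC library above both pEF libraries (2.05 ± 0.58). Lower were FRMD6, a relative of merlin that acts upstream of the kinases, at 0.629 to 2.56 TPM in pgEpiSC against 7.05 and 11.1 TPM in pEF (-2.14 ± 0.56), and the giant cadherin FAT4 at 0.0273 to 0.288 TPM against 2.61 and 4.01 TPM (-1.95 ± 0.37). AMOTL2, an angiomotin that holds YAP at junctions and is itself a target gene, was lower too (-2.07 ± 0.58). With either pEF library left out, FAT4 was the only one of PATJ, FRMD6, FAT4 and AMOTL2 still called, and all 4 were called after scaling in the same direction.

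The list of brakes on the pathway and the list for retention and turnover of YAP and TAZ had 1 call each, where 27.4% of all tested genes were called in either direction. Of 13 tested genes of LIM proteins and the STRIPAK phosphatase complex, 0 were higher and 1 was lower (median 0.13), namely SLMAP, a STRIPAK subunit that recruits the MST kinases and was first known from the muscle sarcolemma. SLMAP was at 2.92, 10.7, 6.67 and 2.94 TPM in pgEpiSC and 25.8 and 58.9 TPM in pEF (-2.71 ± 0.56, limma adjusted p = 0.000234), and its call was lost without pEF replicate 2 (-2.13, adjusted p = 0.111). Of 11 tested genes listed for retention and turnover, which include the 14-3-3 genes, 0 were higher and 1 lower (median 0.48), the ubiquitin ligase gene SIAH2. It was at 0.231 to 0.592 TPM in pgEpiSC and 1.28 and 2.91 TPM in pEF (-1.13 ± 0.38, limma adjusted p = 0.0244). Its place in the list does not mean that SIAH2 acts on YAP or TAZ themselves. SIAH2 lost its call without pgEpiSC replicate 3 or 4 or pEF replicate 2 (-1.10, -1.07 and -0.74). After scaling 5 and 2 genes of these lists were lower and 0 higher, where 30.9% of all tested genes were lower and 27.0% higher.

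The vestigial-like genes encode cofactors that bind TEAD in competition with YAP and TAZ. VGLL3 was at 0.109, 0.375, 0.159 and 0.114 TPM in pgEpiSC, against 7.59 and 17.6 TPM in pEF, and was called lower (-3.41 ± 0.50, limma adjusted p = 1.16e-06). VGLL4, known as a repressor of YAP and TEAD, had a fold of -1.30 ± 0.53 and was not called as deposited (adjusted p = 0.0590), with all 4 pgEpiSC libraries below both pEF libraries; it was called lower after scaling (-1.85). VGLL2 stayed under 0.208 TPM in every library and was not tested.

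**Figure D4:**
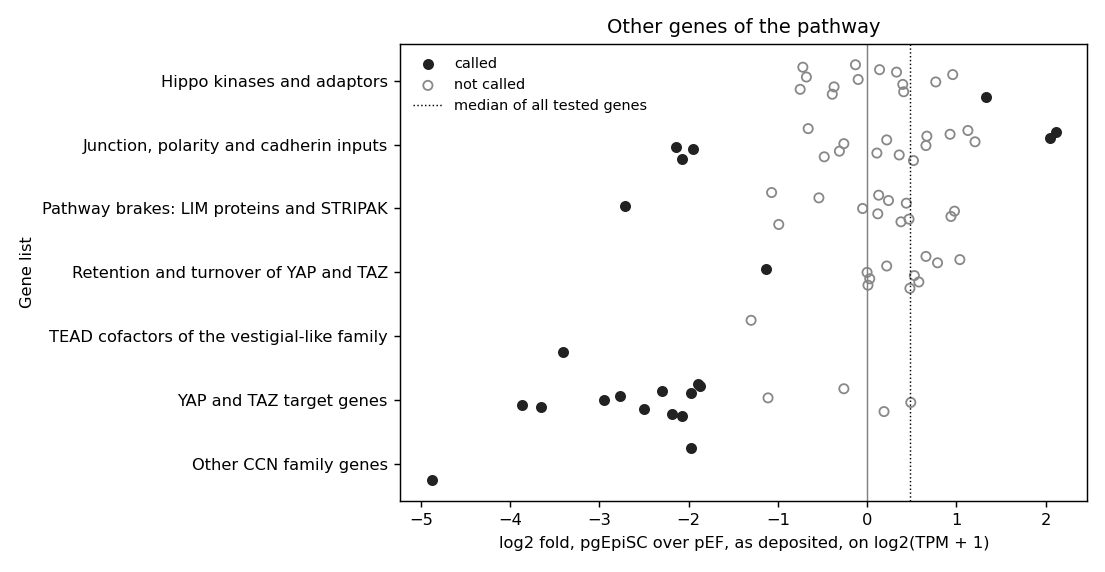
Log2 fold, pgEpiSC over pEF, as deposited on the log2(TPM + 1) scale, of each tested gene (points) in the 7 lists, with called genes filled and the dotted line at the median of all tested genes, 0.48. The called genes of the target and CCN lists all lie at -1.87 or below, and the genes of the 4 upstream lists that were not called (open) lie between -1.07 and 1.21.

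The list of YAP and TAZ targets, taken from a published signature that was drawn from cancers and without its members CCN1, CCN2 and LATS2, held 19 genes. Of these, 17 were found and 15 tested. As deposited 11 were called lower, 0 higher and 4 were not called, where 9.43% of all tested genes were lower and 18.0% higher. After scaling 13 were lower, where 30.9% of all tested genes were. The median fold was -2.07 as deposited. Of the 15, 7 reached 1 TPM in no pgEpiSC library and so passed the filter through pEF alone, which fixed their direction, and the count is given as a description. Of the other 8, 4 were called lower (MYOF, AMOTL2, AXL and CRIM1) and 4 were not called. CRIM1, a transmembrane protein that binds BMPs, was at 0.536, 1.90, 2.14 and 0.529 TPM in pgEpiSC and 17.2 and 53.3 TPM in pEF (-3.87 ± 0.58, limma adjusted p = 1.82e-06). CCDC80, a matrix protein, was at 0.0623 to 0.133 TPM against 8.19 and 19.4 TPM (-3.65 ± 0.49). F3, tissue factor, was at 0.0906 to 0.432 TPM against 2.75 and 24.3 TPM (-2.95 ± 0.54). The other 8 were MYOF, AMOTL2, ANKRD1, AXL, GADD45A, NT5E, TGFB2 and RBMS3, at folds of -2.77 to -1.87. ANKRD1, known from heart and skeletal muscle, was at 1.42 TPM in pEF library 1 and 11.3 TPM in library 2, the library with the higher muscle markers. The 4 genes not called were ASAP1, DOCK5, FJX1 and NUAK2, with folds of 0.19, 0.49, -1.11 and -0.26. Without pEF replicate 1 and without replicate 2, 9 and 8 of the list were called lower. Several of these genes, such as CCDC80, AXL and NT5E, are also genes that fibroblasts express as a cell type, so a lower level of targets and the lack of a fibroblast programme cannot be told apart in this design.

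Among the other CCN genes, CCN3 was at 0.0670, 0.347, 0.182 and 0.0420 TPM in pgEpiSC and 34.1 and 31.7 TPM in pEF (-4.88 ± 0.54, limma adjusted p = 2.42e-09), and CCN4 at 0.0559 to 0.302 TPM against 1.99 and 5.64 TPM (-1.97 ± 0.39). CCN3, also known as NOV, encodes a matricellular protein, and its groups were further apart than the spread of either. CCN5 and CCN6 were under 1.05 TPM in every library and were not tested.

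Among the genes whose levels followed YAP1 most closely over the 6 libraries were SLC35C2 and CDIPT (Pearson r of log2(TPM + 1) 0.999 for each). CDIPT, a phosphatidylinositol synthase, was at 2.49, 13.6, 6.42 and 2.73 TPM in pgEpiSC and 6.87 and 12.7 TPM in pEF. Like YAP1, both genes followed the unequal library scale within pgEpiSC, where libraries 2 and 3 were above 1 and 4. Those most like CCN2 were ACTA2, smooth muscle actin, THBS1, thrombospondin 1, and LMOD1, a smooth muscle leiomodin (0.999, 0.999 and 0.998). ACTA2 was at 0.348 to 1.37 TPM in pgEpiSC, against 475 and 2011 TPM in pEF. These likenesses are descriptions: the 6 points form 2 groups and share their library scales.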

How the data were processed

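Total RNA depleted of rRNA was made into stranded libraries and read as paired ends, per the labels. The authors deposited the values as TPM, which the column names state per the file headers, for 20132 Ensembl gene rows. The submitters' processing notes list STAR 2.6.0c and kallisto 0.44.0 without their roles. The genome build and annotation used by the authors were not given in the sources used here, so no positions or sequences are printed. A gene name table gave symbols to 14062 of 20132 rows (69.8%), and the 2 rows with one symbol between them were added up.

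The test took the 10424 genes that reached 1 TPM in 2 or more libraries. limma 3.58.1 under R 4.3.3 compared the groups on log2(TPM + 1) with a trended variance, and a call needs a Benjamini-Hochberg adjusted p under 0.05 across those genes. Ratios within a library were computed from TPM without a test. The fit was tested on simulated data. The members, lists and tests were chosen with earlier results of these data known. Besides the 10 members, the text names up to 3 called genes in each direction from each list and the 3 genes most like YAP1 and CCN2; other list genes, named after their values were seen, fill out a count or a role. Not every gene so chosen is reported here.

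Alternatives covered pseudocounts of 0.1 and 5, the filter (none, or a mean of 5 TPM), scaling (median ratio, a sum of 1000000, quantiles), the variance model, library weights, a replicate block and leaving out each library, also with scaling. TPM carries no depth, so read sampling error is not given. Tables and figures came from Python 3.11.15, pandas 2.3.3, numpy 2.4.6 and matplotlib 3.10.9.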

Additional observations from a re-analysis of the deposited data

Results flagged for a closer look

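Of 36 sets of 4 pgEpiSC values examined, 3 had a library that stood apart from the other 3 by Dixon's test at 95%, which chance gives for about 1 in 20 sets. WWTR1 was at 2.14 TPM in pgEpiSC library 2, against 0.834 to 0.989 TPM in the others; that library also has the largest TPM sum. The CCN1 to CCN2 ratio was 1.36 in pgEpiSC library 3, against 1.89 to 1.99. Summed CCN1 and CCN2 over YAP1 was 0.378 in pgEpiSC library 1, against 0.131 to 0.165.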

How the results depend on the processing

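Calls over all genes and over the members depended on scale and on the pEF libraries. CCN1 and CCN2 kept their direction and their call in all 24 alternatives, and TEAD2, TEAD1 and LATS2 kept their direction in each alternative that tested them. The number of genes called higher, 1874 as reported, was 967 with a pseudocount of 5, 787 without a filter, 1185 with a mean of at least 5 TPM and 3374 after quantile normalization; with 1 library left out it was 252 to 2270 as deposited and up to 2896 with scaling. The number lower, 983 as reported, was 368 with a mean of at least 5 TPM, 3222 after median-ratio scaling, 2924 after rescaling, 2779 after quantile normalization and 1616 with library weights; with 1 library left out it was 555 to 1367, or up to 3327 with scaling. Members called higher, 1 as reported, numbered 2 with a pseudocount of 0.1, median-ratio scaling or quantile normalization, 0 without a filter, and 0 to 2 with 1 library left out. Members called lower, 4 as reported, numbered 2 without a filter and 8, 6 and 6 after median-ratio scaling, rescaling and quantile normalization. With library weights 5 were lower, and with 1 pgEpiSC library left out 3 to 8, scaled fits included. As deposited the number was smaller still with either pEF library left out. In the other pathway lists, 3 genes were higher as reported, and 1 with a pseudocount of 5 or a mean of at least 5 TPM, 0 without a filter, 6 after median-ratio scaling, 9 after quantile normalization and 0 to 6 with 1 library left out. There 18 were lower as reported, and 4 with a mean of at least 5 TPM, 36, 32 and 33 after median-ratio scaling, rescaling and quantile normalization, and 12 to 39 with 1 library left out. Where limma without a filter calls 0 higher, 1 member and 4 list genes are higher at an unadjusted p under 0.05. More genes enter the adjustment without a filter and fewer with the stricter one, which drops WWTR1, TEAD3, TEAD4, LATS1 and LATS2; for the rest the cause was not tested. Of folds that turned, LATS1 (0.11 as reported) was -0.37 after median-ratio scaling, -0.63 after rescaling, -0.14 after quantile normalization, -0.13 with library weights and -0.41 to 0.38 with 1 library left out, among them -0.08 without pgEpiSC replicate 2 and -0.15 without pEF replicate 1. TEAD3 (-0.25 as reported) was 0.25 without pEF replicate 2, and -1.02 to 0.25 over all fits without 1 library, scaled ones included.

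Replicate numbers 1 and 2 occur in both groups, and nothing says that they mark a shared origin. Deviations from the group means, as deposited, correlated at 0.0982 for number 1 and 0.172 for number 2. For pgEpiSC library 4 and pEF library 1, which share no number, the value was 0.142. The deviations of the 2 pEF libraries mirror each other, so these values cannot show whether a pairing exists. The libraries are treated as sharing a number only. With the replicate block 2204 genes were higher and 893 lower, 2 members higher and 3 lower, and 5 and 17 genes of the other lists. TEAD4 was then called (1.5), LATS2 was not (-1.29) and TEAD3 was at 0.10. With the block and median-ratio scaling together 2304 genes were higher and 2619 lower, 2 members higher and 6 lower, and 5 and 34 list genes, with LATS1 at -0.36. In the ratios within a library, leaving out 1 library gave differences, pgEpiSC less pEF, of 41.4 to 53.1 percentage points for the TEAD2 share, -47.3 to -40.7 for TEAD1, -9.12 to -7.21 for TEAD3, 3.36 to 6.58 for TEAD4, -42.4 to -38.0 for LATS2 and -13.3 to -6.05 for WWTR1, and of 0.898 to 1.12 for the CCN1 to CCN2 ratio.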
